A study of Mus musculus with 6 samples.

Results

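The genes described here are 32 members of the interstitial extracellular matrix, the fibrous and hydrated scaffold between muscle fibres: 12 collagen chains, 5 small leucine-rich proteoglycans, 8 elastic fibre and matrix glycoprotein genes, 3 lysyl oxidases, and a metalloproteinase with 3 tissue inhibitors. They were chosen by name, and each of the 32 symbols matched 1 row among the 19458 genes of every library. Expression was measured by RNA-seq of the gastrocnemius, the large calf muscle, of C57BL/6 mice aged 9 weeks. There were 3 libraries of genotype tmem182-/- (knockout) and 3 of wild type, and all 6 share strain, age and tissue. The labels do not state how the allele was made or whether each library came from 1 mouse, and the p-values given here rest on the variation among these libraries alone, which may be technical.

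Interstitial matrix is made mainly by fibroblasts and fibro-adipogenic progenitors, the mesenchymal cells between fibres, and by tendon cells where muscle joins tendon. Collagen I and III chains form the fibrils, collagen V sits inside those fibrils and helps to set their width, and collagen VI forms beaded filaments near the fibre surface. Proteoglycans coat the fibrils, lysyl oxidases cross-link collagen and elastin, and metalloproteinases cut the matrix while tissue inhibitors restrain them. In bulk tissue, fewer cells of a type and less RNA per cell cannot be told apart.

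Libraries held 16212341 to 18672630 expected counts. Tmem182 was at 6.23, 4.30 and 2.17 FPKM (a level per transcript length and sequencing depth) in knockout libraries 1, 2 and 3, and at 147.48, 121.39 and 120.97 FPKM in wild-type libraries 1, 2 and 3. Tmem182 was thus low in all 3 libraries whose genotype field names its loss, although another label of knockout libraries 2 and 3 names a different Tmem gene. Knockout library 1 stood apart: its TMM scaling factor was 1.19 against 0.933 to 1.04 in the other 5, and its summed fast myofibre markers were 85838 FPKM against 113330 to 129390 FPKM. These fast-fibre genes, which mark limb muscle, were abundant in every library. Where 3 values follow each other below, they are libraries 1, 2 and 3 in that order. The 32 matrix genes together took 0.467%, 0.253% and 0.268% of the counts in knockout libraries 1, 2 and 3, and 0.426%, 0.205% and 0.356% in wild-type libraries 1, 2 and 3.

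No matrix gene passed the test between the genotypes. All 32 passed the filter on low counts, and 0 were called over 12774 genes by the quasi-likelihood test of edgeR at an adjusted p of 0.05, where 0.00783% of all genes (Tmem182 alone) were. The unadjusted p was under 0.05 for 0 of 32, against 3.55% of all genes tested. DESeq2 called 0 of 32, against 0.047% of all genes. The 95% interval of the log2 fold change spanned 0 for all 32, and over the 17 fits tried the smallest adjusted p of any of them was 0.46. Knockout libraries lay entirely above wild type for 0 of 32 (4.67% of all genes) and entirely below for 0 of 32 (4.51% of all genes).

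The direction was mixed. Of the 32 genes, 21 had a log2 fold change above 0 (65.6%, against 51.1% of all genes), with a median of 0.13 where the median of all genes was 0.0046. When libraries were scaled by their totals alone, 25 were above 0, as were 8566 of all 12774 genes. Without knockout library 1 the count was 7 of 32 and the median -0.15. Without wild-type library 2 it was 16 of 32 with a median of 0.01.

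**Figure D1:**
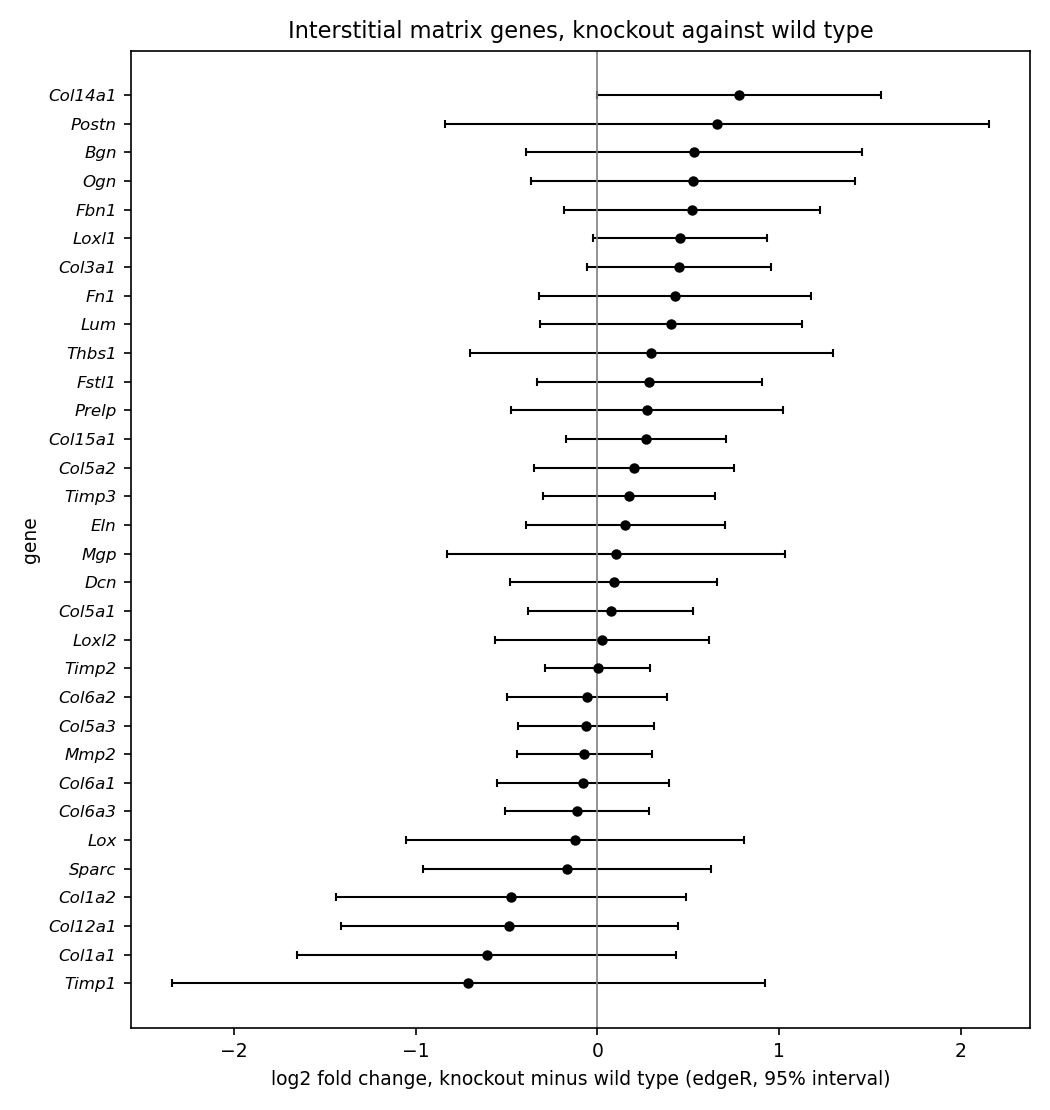
Log2 fold change of each of the 32 matrix genes, knockout minus wild type, from edgeR (x axis, points) with 95% intervals (bars); genes are ordered by value on the y axis. Estimates run from -0.71 for Timp1 to 0.78 for Col14a1, and every interval spans 0.

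Libraries of the same genotype lay far apart in these genes. Knockout library 1 had the highest CPM (counts relative to the TMM-scaled library size) of the 6 for 23 of 32 members, against 29.9% of all genes. Wild-type library 2 had the lowest for 19 of 32 (22.7% of all genes), and knockout library 2 for 9 of 32 (12.4% of all genes). Wild-type library 1 was highest for 6 of 32 (12.1% of all genes). Knockout library 1 and wild-type library 1 were together the top pair for 22 of 32 members, against 17.4% of all genes. Summed over members, the level was 1202, 637 and 662 FPKM in knockout libraries 1, 2 and 3, and 1060, 517 and 854 FPKM in wild-type libraries 1, 2 and 3. The groups therefore overlapped, with a high and a low library on each side.

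Matrix genes also had a larger median spread within a genotype than all genes tested. Their median within-group SD was 0.45 on the log2 CPM scale, where that of all 12774 genes was 0.20. The ratio of the highest to the lowest FPKM among knockout libraries was above 2 for 23 members, with a median of 2.16 and a range from 1.54 for Timp3 to 7.48 for Timp1. Among wild-type libraries it was above 2 for 11 members, with a median of 1.71 and a range from 1.204 for Timp2 to 4.92 for Postn. Timp1 rested on 3 to 24 expected counts per library and Postn on 22 to 213, fewer than for most members.

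**Figure D2:**
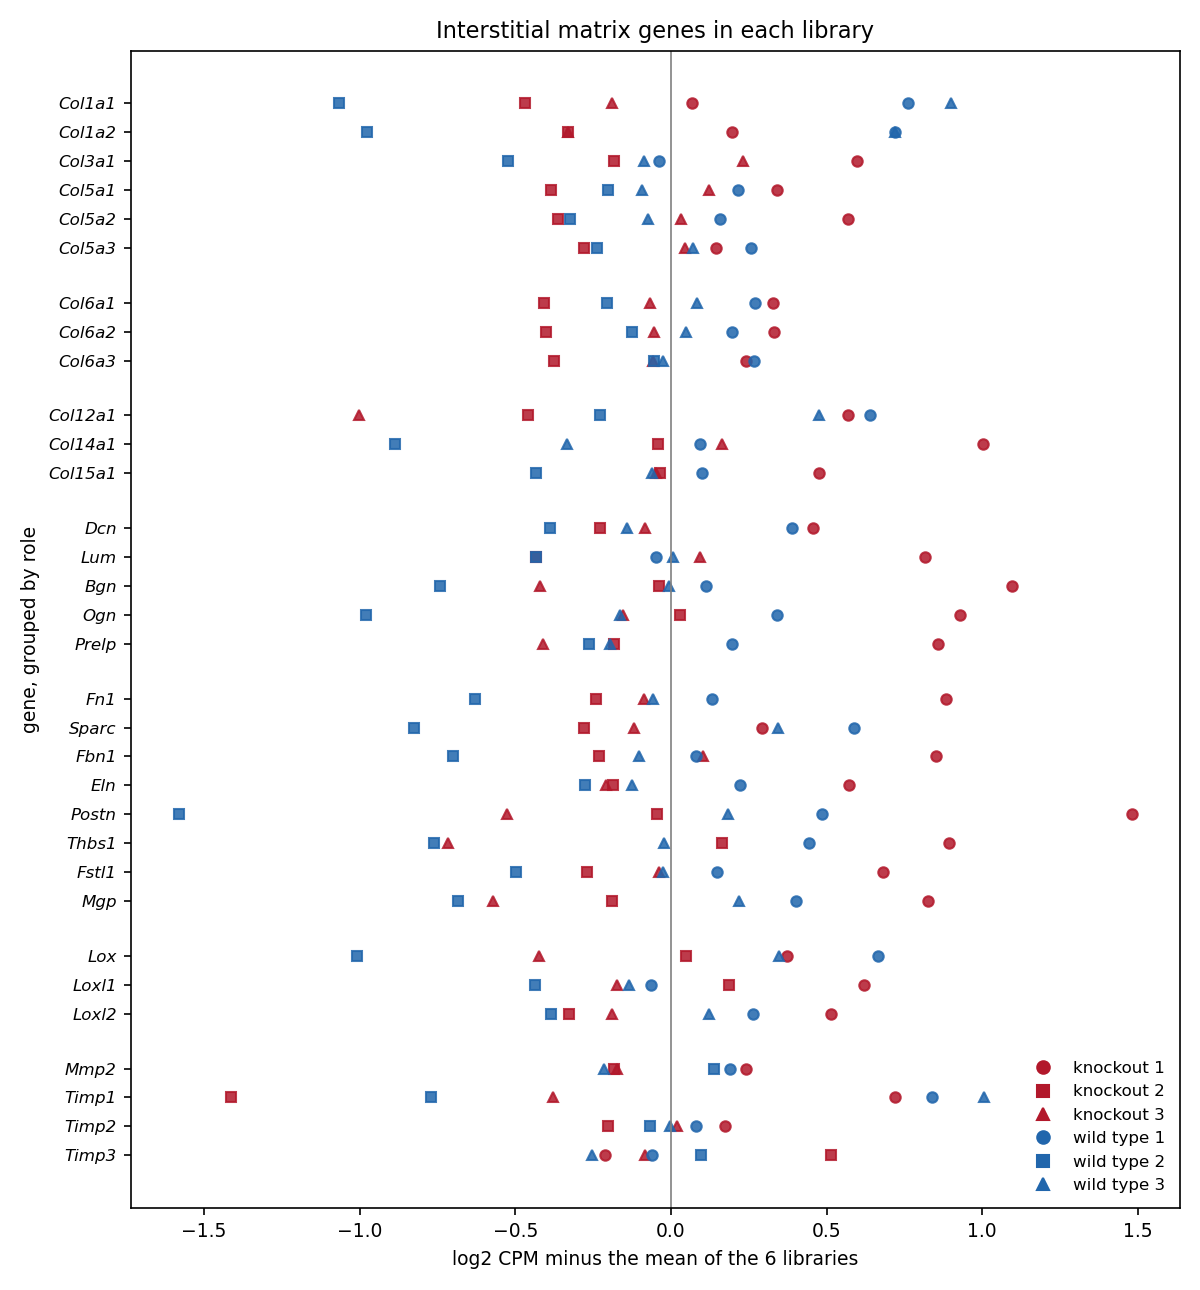
Level of each of the 32 matrix genes in each library, as log2 CPM minus the mean of the 6 libraries (x axis), with genes grouped by role on the y axis; red is knockout, blue is wild type, and marker shape gives the library number. Knockout library 1 (red circles) is furthest right for 23 genes and wild-type library 2 (blue squares) furthest left for 19.

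Among members with a wild-type mean of at least 10 FPKM, the collagen I chains had the largest ratio of highest to lowest wild-type library, 3.86 for Col1a1 and 3.53 for Col1a2. Col1a1, the alpha 1 chain (chromosome 11, 94936224 to 94953042, plus strand, GRCm38), measured 105.28, 58.54 and 70.08 FPKM in knockout libraries 1, 2 and 3. In wild-type libraries 1, 2 and 3 it was at 149.8, 38.79 and 147.61 FPKM. Wild-type library 2 was thus the lowest of all 6 and wild-type libraries 1 and 3 the highest. The log2 fold change was -0.61, with SE 0.45 and a 95% interval of -1.65 to 0.43 (edgeR adjusted p = 0.994). It was -1.01 without wild-type library 2, -0.41 without wild-type library 1 and -0.30 without wild-type library 3. Col1a2, the alpha 2 chain (chromosome 6, 4504814 to 4541544, plus strand), measured 106.52, 59.7 and 58.78 FPKM across knockout libraries and 134.89, 38.2 and 120.65 FPKM across wild-type libraries. Its log2 fold change was -0.48 (SE 0.41), from -0.86 without wild-type library 2 to -0.24 without wild-type library 3, and the same 3 libraries were on top and wild-type library 2 lowest as for Col1a1. Knockout and wild-type means (SD, n = 3) were 78.0 ± 24.3 and 112 ± 63.5 FPKM for Col1a1, and 75.0 ± 27.3 and 97.9 ± 52.2 FPKM for Col1a2.

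Collagen III did not follow that order. Col3a1, whose chains form homotrimers that mix with collagen I in fibrils (chromosome 1, 45311538 to 45349706, plus strand), measured 66.21, 31.09 and 40.85 FPKM across knockout libraries and 37.47, 24.65 and 32.46 FPKM across wild-type libraries. Knockout library 1 was far above the others, and the remaining 5 lay within 24.65 to 40.85 FPKM (knockout mean 46.0 ± 18.1 and wild-type mean 31.5 ± 6.46 FPKM, SD, n = 3). The log2 fold change was 0.45, with SE 0.22 and a 95% interval of -0.06 to 0.96 (unadjusted p = 0.0745, adjusted p = 0.994 by edgeR), the third smallest p among the members, and 0.24 without knockout library 1.

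RefSeq gives the start-site windows of Col1a2 and Col3a1, shown because these 2 fibrillar collagens had different library orders. For Col1a2 that start lies inside the gene as annotated above. Each runs from 250 bases before to 50 after the start site on the plus strand of GRCm38.p6, at chr6:4505368-4505667 and chr1:45311288-45311587, and capitals mark the motifs searched on both strands.
Col1a2: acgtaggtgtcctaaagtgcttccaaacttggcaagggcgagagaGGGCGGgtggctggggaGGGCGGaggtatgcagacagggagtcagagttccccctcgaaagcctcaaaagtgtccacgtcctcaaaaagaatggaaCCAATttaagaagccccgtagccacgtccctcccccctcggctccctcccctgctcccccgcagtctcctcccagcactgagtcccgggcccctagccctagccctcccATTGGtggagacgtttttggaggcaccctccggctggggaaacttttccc
Col3a1: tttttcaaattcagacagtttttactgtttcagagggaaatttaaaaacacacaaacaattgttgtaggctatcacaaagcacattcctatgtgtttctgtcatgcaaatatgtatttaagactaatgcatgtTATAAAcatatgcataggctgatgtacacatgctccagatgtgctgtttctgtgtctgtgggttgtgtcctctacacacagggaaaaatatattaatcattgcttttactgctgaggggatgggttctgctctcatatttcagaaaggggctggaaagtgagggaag
The motifs were TATAAA for the TATA box, CCAAT for the CCAAT box and GGGCGG for the GC box. The Col1a2 window held 2 GC boxes, starting at -205 and -188 from the start site, and 2 CCAAT boxes, at -109 and, on the other strand, at 1. The Col3a1 window held 1 TATA box, at -117, and neither of the other motifs. Base composition differed too, with 61.0% G or C for Col1a2 and 37.7% for Col3a1. Windows were found for 18 of the 32 members. A TATA box was in those of 3 members (Col3a1, Ogn and Postn), a CCAAT box in 6 and a GC box in 10, while among all 32851 RefSeq windows the shares were 13.6%, 37.4% and 35.7%. These matches describe letters in a window and were not tied to the expression values.

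Ratios within a library do not depend on how libraries are scaled. Col3a1 to Col1a1 was 0.629, 0.531 and 0.583 in knockout libraries 1, 2 and 3, and 0.250, 0.636 and 0.220 in wild-type libraries 1, 2 and 3. The knockout libraries were close together, while wild-type library 2 sat with them and the other two wild-type libraries lay far lower. The mean log2 ratio was 0.83 higher in the knockout (n = 3 each; SD 0.12 among knockout and 0.84 among wild-type libraries), with p = 0.4 in a two-sided exact permutation test and 0.7 after adjustment over the 7 ratios tested. The smallest p that 3 against 3 libraries allow is 0.1. The difference was 1.30 without wild-type library 2 and 0.54 without wild-type library 3.

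Col5a1 to Col1a1 was at 0.0983, 0.0856 and 0.101 in the knockout against 0.0558, 0.148 and 0.0408 in wild type (log2 difference 0.44, exact permutation p = 0.4). Wild-type libraries 1 and 3 were again the lowest, but here wild-type library 2 lay above every knockout library. The log2 difference for this ratio was 0.99 without wild-type library 2, 0.28 without wild-type library 1 and 0.055 without wild-type library 3. Both of these ratios share Col1a1 as denominator. Col1a1 to Col1a2, whose products join in 1 trimer, stayed between 0.981 and 1.22 in all 6 libraries (log2 difference -0.09, exact permutation p = 0.5; -0.02 to -0.18 with single libraries left out).

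**Figure D3:**
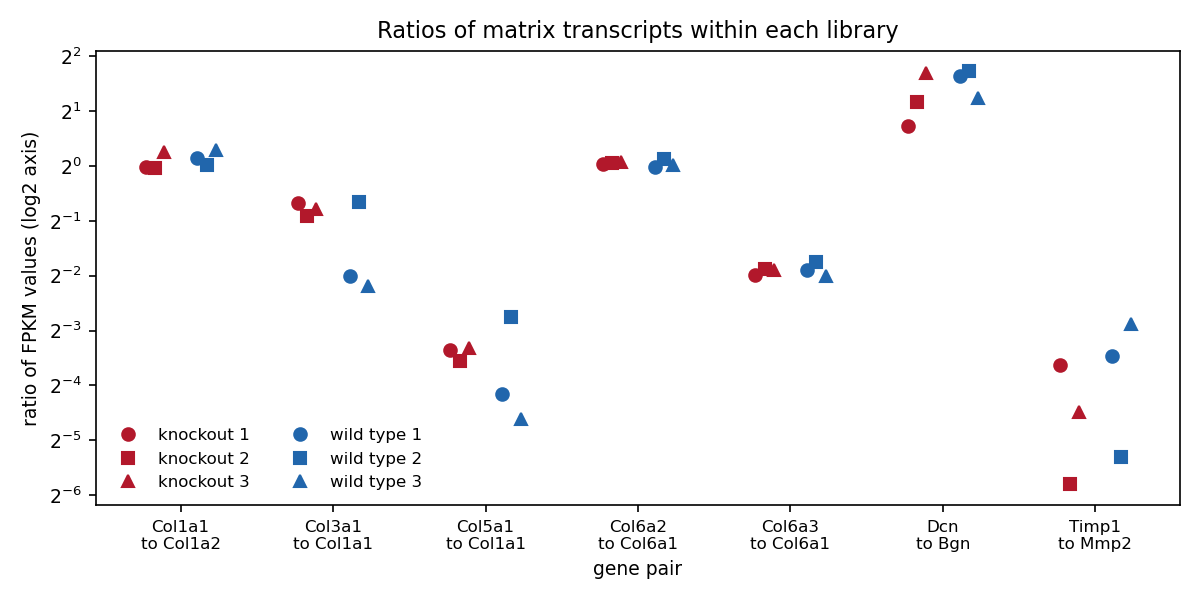
Ratio of FPKM values within each library for 7 pairs of matrix genes (x axis), on a log2 y axis; red is knockout, blue is wild type, and marker shape gives the library number. Collagen VI chain ratios sit close together in all 6 libraries, while Col3a1 to Col1a1 spans 0.220 to 0.636.

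Collagen V chains had log2 fold changes near 0, each smaller than its SE. Col5a1 was at 10.35, 5.01 and 7.05 FPKM across knockout libraries and at 8.36, 5.76 and 6.03 FPKM across wild-type libraries (log2 fold change 0.07 with SE 0.20). For Col5a2 the log2 fold change was 0.20 (SE 0.24) and for Col5a3 it was -0.06 (SE 0.16). The sign of Col5a1 turned without knockout library 1 (-0.10).

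The 3 collagen VI chains kept similar proportions in all 6 libraries. Col6a1 was at 44.8, 21.69 and 27.01 FPKM across knockout libraries and at 37.76, 25.01 and 29.71 FPKM across wild-type libraries. Col6a2 was at 46.29, 22.48 and 28.29 FPKM across knockout and 37.1, 27.42 and 30.03 FPKM across wild-type libraries. Col6a3, which encodes the long chain of the monomer, was at 11.3, 5.92 and 7.29 FPKM across knockout and 10.13, 7.41 and 7.39 FPKM across wild-type libraries. In each of the 3 genes knockout library 2 was the lowest, and library 1 of both genotypes formed the top pair. Col6a2 to Col6a1 ran from 0.983 to 1.10 (exact permutation p = 0.8) and Col6a3 to Col6a1 from 0.249 to 0.296 (exact permutation p = 0.9). Log2 fold changes were -0.08 (SE 0.20), -0.06 (SE 0.19) and -0.11 (SE 0.17), and those of Col6a1 and Col6a2 turned to 0.02 and 0.04 when libraries were scaled by their totals alone. The 95% interval for Col6a1 ran from -0.55 to 0.39.

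Of the collagens that decorate or link fibrils, Col14a1 had the smallest p of all 32 members. It encodes collagen XIV, a fibril-associated collagen, and was at 3.58, 1.4 and 1.58 FPKM across knockout libraries and at 1.67, 0.77 and 1.1 FPKM across wild-type libraries. Knockout library 1 was highest, but in FPKM wild-type library 1 lay above knockout libraries 2 and 3. In CPM wild-type library 1 lay above knockout library 2 but below knockout library 3. The log2 fold change was 0.78 (SE 0.34, unadjusted p = 0.0506, adjusted p = 0.994), and it dropped to 0.39 when knockout library 1 was left out and to 0.56 when wild-type library 2 was. The gene body of Col14a1, introns included, is overlapped on the other strand by 1700040F17Rik, Gm18787 and Gm49257. Whether their exons share bases with its own was not checked. Reads from any shared bases could not be told apart if strand was not used in counting.

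Col15a1, a multiplexin collagen of the basement membrane zone, was at 23.92, 13.46 and 13.17 FPKM across knockout libraries and at 16.2, 10.26 and 12.98 FPKM across wild-type libraries (log2 fold change 0.27 with SE 0.19). Col12a1, a fibril-associated collagen abundant in tendon and fascia, was at 1.9, 0.78 and 0.52 FPKM across knockout and 1.86, 0.88 and 1.43 FPKM across wild-type libraries (log2 fold change -0.49 with SE 0.40). Col15a1 was lowest in wild-type library 2 and Col12a1 in knockout library 3. Without knockout library 1 their log2 fold changes were 0.07 and -1.06.

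**Figure D4:**
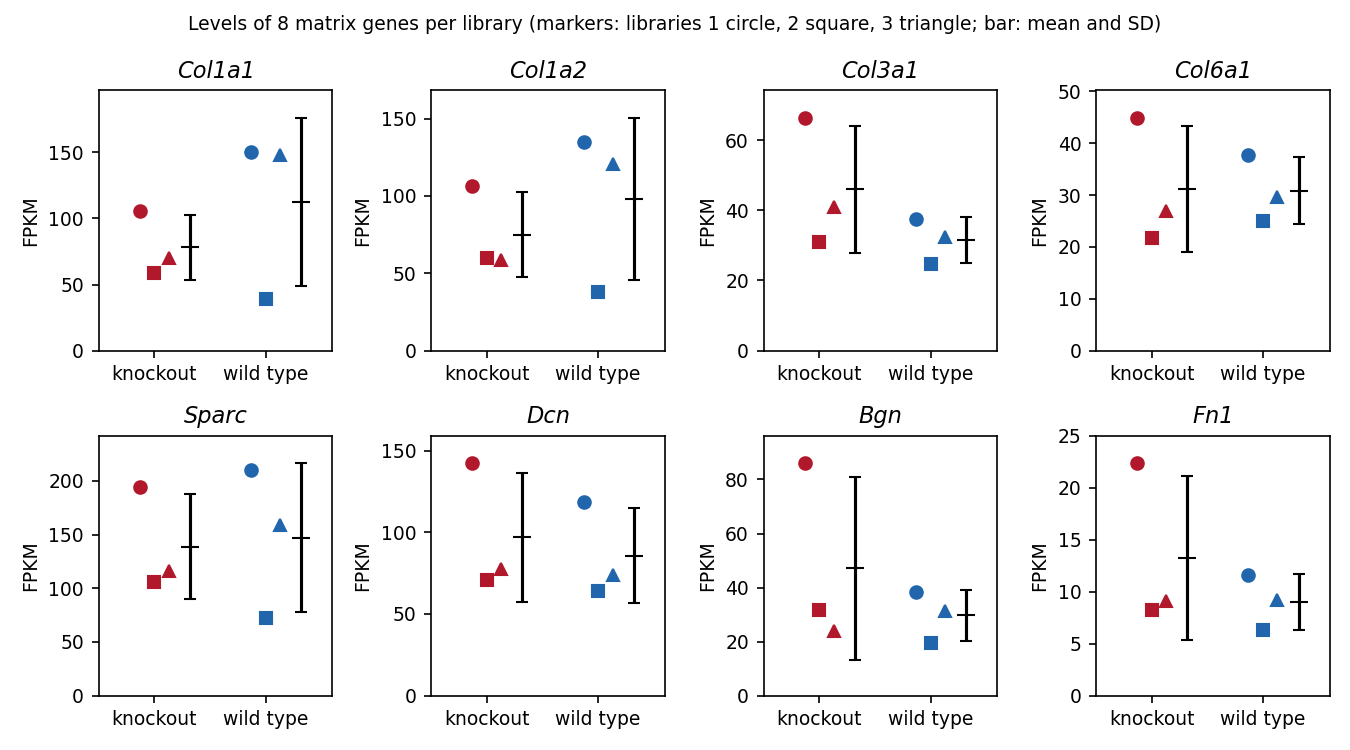
FPKM (y axis, from 0) of 8 matrix genes in each knockout (red) and wild-type (blue) library, with the mean and SD of each group in black; circles, squares and triangles are libraries 1, 2 and 3. Col1a1 and Col1a2 are highest in wild-type libraries 1 and 3, whereas Col3a1, Bgn and Fn1 are highest in knockout library 1.

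All 5 small leucine-rich proteoglycan genes had a log2 fold change above 0, with a median of 0.41, and 0 passed the test. Without knockout library 1 only Ogn remained above 0. Bgn, biglycan, which binds collagen I and growth factors of the TGF-beta family, was at 85.95, 31.56 and 23.82 FPKM across knockout libraries and at 38.19, 19.4 and 31.43 FPKM across wild-type libraries. Its level in knockout library 1 was more than that of any wild-type library by a wide margin, while knockout library 3 lay below wild-type libraries 1 and 3. Its log2 fold change was 0.53 (SE 0.40) and -0.05 without knockout library 1.

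Dcn, decorin, the closest relative of biglycan and the most abundant proteoglycan of the set, was at 142.18, 71.02 and 77.51 FPKM across knockout and 118.76, 64.25 and 73.93 FPKM across wild-type libraries. Library 1 was high and library 2 low in both genotypes, so the group means almost coincided (log2 fold change 0.09, SE 0.25). Dcn to Bgn was 1.65, 2.25 and 3.25 in the knockout and 3.11, 3.31 and 2.35 in wild type (log2 difference -0.33, exact permutation p = 0.4). It was -0.097 without knockout library 1 and -0.58 without knockout library 3. The sign for Dcn itself turned without knockout library 1 (-0.15) or wild-type library 2 (-0.07).

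Ogn, osteoglycin, was at 11.77, 5.07 and 4.39 FPKM across knockout libraries and at 6.87, 2.5 and 4.32 FPKM across wild-type libraries (log2 fold change 0.53 with SE 0.38). It lies inside Cenpp, a gene on the other strand. Lum, lumican, a regulator of fibril assembly, was at 7.59, 2.55 and 3.64 FPKM across knockout and 3.64, 2.56 and 3.39 FPKM across wild-type libraries (log2 fold change 0.41 with SE 0.31). For both, the 2 other knockout libraries lay close to or within the wild-type range. Prelp, prolargin, had a log2 fold change of 0.27 (SE 0.32), with 35.64 FPKM in knockout library 1 and 11.71 to 19.78 FPKM in the other 5.

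Among elastic fibre and glycoprotein genes, 7 of 8 had a log2 fold change above 0 (median 0.29), 0 passed, and 1 of 8 was above 0 without knockout library 1. Fbn1, fibrillin 1, the backbone of microfibrils, was at 12.15, 4.6 and 5.72 FPKM across knockout libraries and at 6.25, 3.34 and 4.92 FPKM across wild-type libraries (log2 fold change 0.52 with SE 0.30, unadjusted p = 0.125). Fn1, fibronectin, the adhesive glycoprotein that integrins bind, was at 22.33, 8.24 and 9.07 FPKM across knockout and 11.63, 6.3 and 9.15 FPKM across wild-type libraries (log2 fold change 0.43 with SE 0.32). Without knockout library 1 these values were 0.15 and -0.01.

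Sparc, a collagen-binding glycoprotein and the most abundant member, had the opposite sign. It was at 194.57, 105.5 and 116.23 FPKM across knockout libraries and at 209.81, 72.56 and 158.65 FPKM across wild-type libraries (log2 fold change -0.17 with SE 0.34), or 0.11 without wild-type library 1. Its top 3 libraries were those of collagen I. The remaining members of this role, Eln (elastin), Postn (periostin), Thbs1 (thrombospondin 1), Fstl1 (follistatin-like 1) and Mgp (matrix Gla protein, an inhibitor of calcification), had log2 fold changes from 0.10 (SE 0.40, Mgp) to 0.66 (SE 0.64, Postn). In all 5 knockout library 1 was the highest and wild-type library 2 the lowest.

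The cross-linking enzymes lay on both sides of 0. Loxl1, which is needed for elastic fibre upkeep, had the second smallest p of the set, at 10.12, 6.04 and 4.62 FPKM across knockout libraries and at 5.53, 3.92 and 4.71 FPKM across wild-type libraries. The log2 fold change was 0.45, with SE 0.21 and a 95% interval of -0.02 to 0.93 (unadjusted p = 0.0599, edgeR adjusted p = 0.994), and knockout library 3 lay below 2 of the 3 wild-type libraries. Without knockout library 1 it was 0.22. For Loxl2 the log2 fold change was 0.02 (SE 0.25) and for Lox it was -0.12 (SE 0.40), and Lox was at 1.02 FPKM in wild-type library 2 against 1.55 to 3.54 FPKM elsewhere. Without wild-type library 1 the value for Lox was 0.22, and without knockout library 1 that for Loxl2 was -0.29.

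Among remodelling genes, Mmp2, gelatinase A, was at 19.51, 11.74 and 11.63 FPKM across knockout libraries and at 16.58, 14.71 and 11.2 FPKM across wild-type libraries (log2 fold change -0.07 with SE 0.16). Timp2, which both inhibits Mmp2 and takes part in its activation, was the member with the smallest SE, at a log2 fold change of 0.00 (SE 0.12, 95% interval -0.29 to 0.29). Timp3, an inhibitor that stays bound to the matrix, was at 45.27, 60.41 and 39.3 FPKM across knockout and 44.21, 45.39 and 34.59 FPKM across wild-type libraries (log2 fold change 0.17 with SE 0.20, or -0.08 without knockout library 2). It was the only member that was highest in knockout library 2, and in knockout library 1 it lay within the wild-type range. It lies inside Syn3, a gene on the other strand.

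Timp1, a secreted inhibitor often raised in damaged tissue, was at 1.57, 0.21 and 0.52 FPKM across knockout libraries and at 1.51, 0.37 and 1.53 FPKM across wild-type libraries, from 22, 3 and 8 expected counts and 23, 6 and 24. The log2 fold change was -0.71 (SE 0.70), -1.61 without knockout library 1 and -0.29 without knockout library 2. High and low libraries occurred in both groups, and the top 3 were those of collagen I. Timp1 to Mmp2 ran from 0.0179 to 0.137 (log2 difference -0.76, exact permutation p = 0.5). That difference was -1.48 without wild-type library 2 and -1.26 without knockout library 1, and -0.18 and -0.26 without knockout library 2 and wild-type library 3. Timp1 lies inside Syn1 on the other strand.

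For 17 of 32 members the 3 highest libraries were those of collagen I, knockout library 1 and wild-type libraries 1 and 3, against 11.6% of all genes. This set of libraries was taken from Col1a1 and Col1a2, so these genes count among the 17 by definition. Among the 17, wild-type libraries 1 and 3 both lay above knockout library 1 for 4 (Col1a1, Col1a2, Sparc and Timp1), and the other 13 had knockout library 1 first or second. Summed tendon cell markers had the same 3 libraries on top. Their 8 genes (Scx, Tnmd, Mkx, Fmod, Thbs4, Kera, Comp and Chad) summed to 264, 127 and 96.6 FPKM across knockout libraries and to 274, 95.3 and 198 FPKM across wild-type libraries. Tnmd, tenomodulin, was at 5.74, 2.59 and 2.26 FPKM across knockout and 8.58, 1.35 and 5.23 FPKM across wild-type libraries. All 8 had a log2 fold change below 0 (median -0.34), or 7 of 8 with library totals alone and 5 of 8 (median -0.05) without wild-type library 1, 0 passed the test, 0 had an unadjusted p under 0.05, and 0 were at 0 in every library. The part of tendon tissue in the collagen I values was not tested.

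Fibroblast-lineage markers were also highest in knockout library 1. Their 16 genes, of which Tcf21 was at 0 in every library, summed to 490, 234 and 298 FPKM across knockout libraries and to 353, 302 and 236 FPKM across wild-type libraries. Their mean log2 CPM, which weights the genes equally, was 4.37, 3.69 and 3.95 in knockout libraries 1, 2 and 3, and 4.04, 3.63 and 3.75 in those of wild type, lowest in wild-type library 2. Of 15 tested, 13 had a log2 fold change above 0 (median 0.22), 0 passed, 1 had an unadjusted p under 0.05 (Pi16), and 7 were above 0 without knockout library 1. Those with the smallest p were Pi16 (log2 fold change 0.87, SE 0.32), Scara5 (0.56, SE 0.27) and Smoc2 (0.22, SE 0.11). Of these, Pi16 and Smoc2 had knockout libraries entirely above wild type in CPM, as had 4.67% of all genes tested. In FPKM the groups overlapped for Smoc2 but not for Pi16. With the mean level of these markers as a covariate, 10 of the 32 matrix genes had a log2 fold change above 0, as had 6332 of all 12774 genes. The median of the matrix genes was then -0.11, and 0 passed. The part of fibroblasts in the matrix values was not tested.

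Markers of other tissue cells were also high in knockout library 1 and often in wild-type library 1. The 8 Schwann cell markers summed to 314, 51.2 and 90.0 FPKM across knockout libraries and to 207, 20.5 and 39.6 FPKM across wild-type libraries, and none was at 0 in every library. The 10 endothelial markers summed to 191, 122.6 and 88.3 FPKM against 148, 93.1 and 118 FPKM, and the 9 of smooth muscle and pericytes to 229, 150 and 134 FPKM against 190, 135 and 153 FPKM. Slow myofibre markers summed to 2892, 1926 and 125 FPKM across knockout libraries and to 878, 93.2 and 713 FPKM across wild-type libraries, so knockout library 2 was high in slow fibres while low in matrix. Fitted with slow-fibre markers as covariate, 17 of 32 matrix genes were above 0 (median 0.02), as were 6381 of all 12774 genes. The part of these cell types in the matrix values was not tested.

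**Figure D5:**
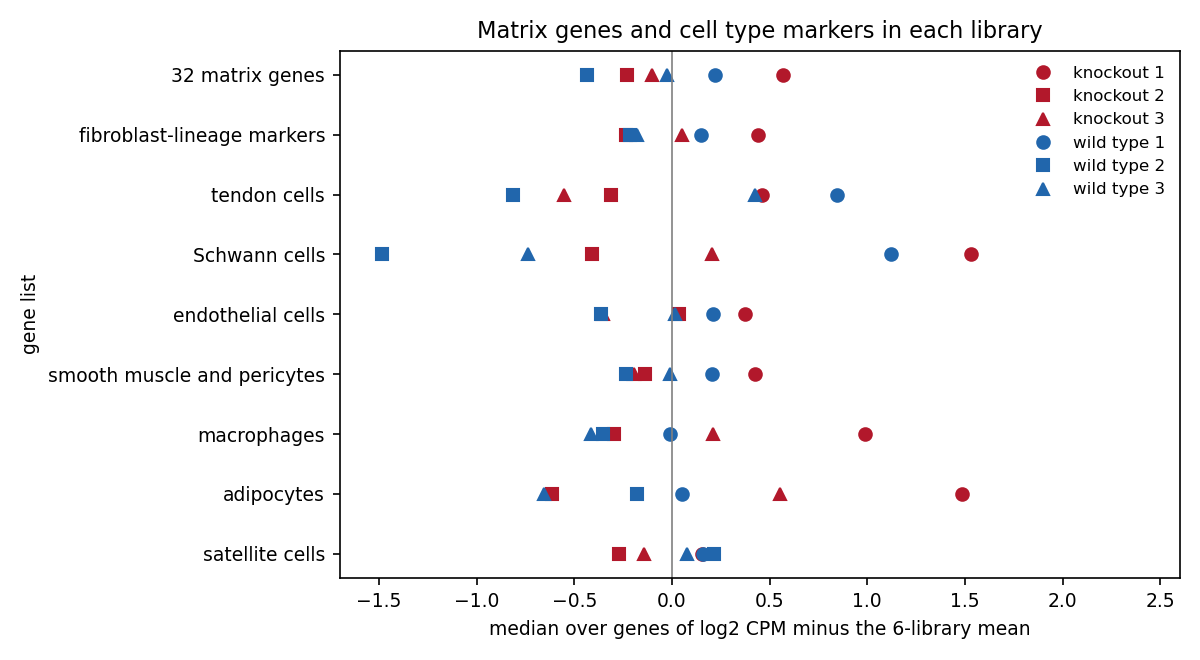
Median over the genes of each list of log2 CPM minus the mean of the 6 libraries (x axis), for the 32 matrix genes and 8 lists of cell type markers (y axis); red is knockout, blue is wild type, and marker shape gives the library number. For the matrix genes the medians are 0.57, -0.23 and -0.10 in knockout libraries 1, 2 and 3, and 0.22, -0.43 and -0.02 in wild-type libraries 1, 2 and 3.

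Genes around the matrix members gave 0 calls as well by edgeR, and among the lists that follow only the last, of other interstitial matrix genes, had members with an unadjusted p under 0.05 (Tnc and Efemp1). Of 25 tested genes of collagen synthesis and processing, 17 had a log2 fold change above 0 (median 0.05), or 22 with library totals alone and 7 (median -0.12) without knockout library 1; P4ha1, a subunit of the prolyl hydroxylase that stabilises the collagen helix, was at 0.24 (SE 0.12), the procollagen protease gene Adamts3 at -0.87 (SE 0.47) and the collagen chaperone gene Fkbp10 at -0.29 (SE 0.23). Of 16 matrix receptors 12 were above 0 (median 0.09; 14 with totals alone, 4 without knockout library 1), with Itgb1, Itgav and Itgb5, integrin subunits, at 0.28 (SE 0.14), 0.26 (SE 0.15) and 0.19 (SE 0.12). Of 17 proteases and inhibitors 7 were above 0 (median -0.03; 9 with totals alone, 4 without knockout library 1), with Mmp9, Adamts5 and Ctsk at 0.59 (SE 0.34), 0.33 (SE 0.19) and -0.45 (SE 0.29).

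Of 19 genes of the TGF-beta pathway, the main inducer of fibrillar collagen, 11 were above 0 (median 0.03; 13 with totals alone, 8 without knockout library 1). The ligand gene Tgfb3 was at 16.01, 11.02 and 10.86 FPKM across knockout libraries and at 11.3, 9.52 and 10.14 FPKM across wild-type libraries (log2 fold change 0.21 with SE 0.10). Ski, a repressor of the pathway, and Ltbp2, which codes for a microfibril-associated protein, were at -0.17 (SE 0.10) and 1.04 (SE 0.60). Ltbp2 rested on only 5 to 33 expected counts per library, and knockout library 3 lay below wild-type libraries 1 and 3. Of 32 other interstitial matrix genes tested, 15 were above 0 (median -0.06; 19 with totals alone, 7 without knockout library 1), and Tnc, Efemp1 and Ecm1, with the smallest p, were at -0.80 (SE 0.23), 0.64 (SE 0.25) and 0.54 (SE 0.28). Tnc, tenascin C, had 3 knockout libraries (1.87, 1.16 and 0.75 FPKM) below the 3 of wild type (2.21, 2.01 and 1.99 FPKM), with an edgeR adjusted p of 0.994. In CPM, Ski also lay entirely below wild type and Tgfb3 entirely above, although the FPKM values of both overlapped. Of all genes tested, 4.51% lay entirely below and 4.67% entirely above.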

How the data were processed

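Each library had 1 deposited table of 19458 genes. Per the file headers, its 2 value columns are counts and FPKM. As deposited, the counts are expected counts, of which 26.2% to 27.5% are not whole; FPKM values are used as deposited. Per the submitters' processing notes, the tools included RSEM 1.2.12, Bowtie2 2.2.5 and HISAT2 2.0.4, on GRCm38. Roles, read filters, annotation and use of strand: not given in the sources used here. The tissue label (muscle) was followed where the extraction text names cultured cells.

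Expected counts were rounded, filtered by filterByExpr (minimum count 10; 12774 genes kept), scaled by TMM and fitted by quasi-likelihood in edgeR 4.0.16 under R 4.3.3, two-sided, Benjamini-Hochberg adjusted over all 12774 genes. The common biological coefficient of variation was 18.8%. SE was taken as |log2 fold change| over the root of the F statistic. Other settings were leaving out each library, a replicate block, filtering on a mean of 1 FPKM or not at all, DESeq2 1.42.0 (its size factors, its Wald test), limma-voom with quality weights, limma 3.58.1 on log2(FPKM + 1), and marker levels as covariates; scaling by library totals was added after the data were seen. The fits were tested on counts simulated with 1 common dispersion for all genes. That setting lacks the larger spread of the matrix genes, so it gives no measure of power for them. The 32 members and all lists were chosen with earlier results of these data known. Values in every library are given for the 10 members with the smallest p, the 4 most abundant, the chains of collagen I, III and VI and the genes in ratios, with Col12a1 and Timp3 added after their values were seen; of other lists, up to 3 genes with the smallest p are named. No pair of libraries agreed within sampling noise (lowest chi-square per degree of freedom 13.6). Positions and overlaps come from GENCODE M21 (GRCm38) and start-site windows from RefSeq (GRCm38.p6). Antisense genes overlap 15 of the 32 members, and 3 lie inside one, counted over whole gene bodies without comparing exons.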

Additional observations from a re-analysis of the deposited data

How the results depend on the processing

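In all 17 fits 0 of the matrix genes tested passed an adjusted p of 0.05; 32 were tested in each, except for 31 under a minimum mean of 1 FPKM, which dropped Timp1. The count over all genes was 1, or 6 by the DESeq2 Wald test, and ranged from 0 (without knockout library 2 or wild-type library 3) to 1 when single libraries were left out. The number of matrix genes above 0, 21 of 32, ranged from 7 (without knockout library 1) to 27 (without wild-type library 1), and was 8 with limma-voom quality weights and 10 with fibroblast markers as a covariate. Their median of 0.13 ranged from -0.15 to 0.31 with single libraries left out, was -0.11 with quality weights and -0.11 with the fibroblast covariate (-0.1090 and -0.1063). Over the 17 fits 6 members (Col14a1, Col15a1, Col3a1, Fbn1, Loxl1 and Ogn) stayed above 0, 4 (Col12a1, Col1a1, Col1a2 and Timp1) stayed below 0, and 22 took either sign.

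The sign turned for 13 members with quality weights, 11 with the fibroblast covariate, 4 with library totals alone and 14 without knockout library 1. Among the genes given in full these were, with quality weights, Col5a1 (-0.16), Dcn (-0.10), Lum (-0.11) and Fn1 (-0.033), with the fibroblast covariate for Col5a1 (-0.15) and Dcn (-0.16), and with library totals alone for Col6a1 (0.015), Col6a2 (0.039) and Mmp2 (0.014). With single libraries left out, ranges crossed 0 for 22 of 32 members, among them -0.096 to 0.25 for Col5a1, -0.29 to 0.081 for Col6a1, -0.27 to 0.104 for Col6a2, -0.28 to 0.027 for Col6a3, -0.15 to 0.34 for Dcn, -0.0016 to 0.65 for Lum, -0.052 to 0.804 for Bgn, -0.013 to 0.63 for Fn1, -0.49 to 0.11 for Sparc and -0.23 to 0.00026 for Mmp2; for the log2 ratio differences they were -0.019 to 0.060 (Col6a2 to Col6a1) and -0.090 to 0.036 (Col6a3 to Col6a1). The cause was not tested.

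Deviations of same-numbered libraries correlated at 0.52, 0.18 and -0.12, and those of differently numbered libraries at -0.47 to 0.43. With 3 libraries per genotype, these values cannot decide whether replicate numbers pair the libraries. With the replicate block 20 of 32 members were above 0, the median was 0.11 and 0 passed. Timp1, with 3 to 24 counts, is limited most by depth.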

Other observations

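All 10 macrophage markers tested had a log2 fold change above 0 (median 0.58), against 51.1% of all genes, and 0 passed the test, with 2 at an unadjusted p under 0.05. Lyz2, lysozyme of myeloid cells, was at 26.43, 8.52 and 11.96 FPKM across knockout libraries and at 9.64, 6.03 and 5.33 FPKM across wild-type libraries (log2 fold change 1.05 with SE 0.34, edgeR adjusted p = 0.994). The list summed to 86.7, 28.1 and 40.5 FPKM across knockout libraries and to 36.3, 25.8 and 24.6 FPKM across wild-type libraries, so knockout libraries 1 and 3 were the highest. Without knockout library 1 the median was 0.23, with 9 of 10 above 0.

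All 7 adipocyte markers tested were above 0 as well (median 1.19; 0 passed and 1 had an unadjusted p under 0.05). Adipoq, the adipocyte hormone adiponectin, was at 10, 0.78 and 2.99 FPKM across knockout libraries and at 1.17, 1.45 and 1.09 FPKM across wild-type libraries (log2 fold change 1.71 with SE 0.71). The list summed to 277, 144 and 132 FPKM across knockout libraries and to 196, 122 and 142 FPKM across wild-type libraries, with library 1 of both genotypes on top. In the median over its genes of log2 CPM minus the 6-library mean, knockout library 3 came second instead. That median was 1.49, -0.61 and 0.55 across knockout libraries and 0.05, -0.18 and -0.66 across wild-type libraries. For Adipoq knockout library 2 was the lowest of the 6, so the groups overlapped, and the median without knockout library 1 was 0.38, with 5 of 7 above 0.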
